A study of Mus musculus with 27 samples.

Results

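The response of wild-type mouse dorsal root ganglia to a sciatic nerve injury was measured in 6 RNA-seq libraries, out of 27 in a series on the phosphatase gene Ptpn2, interferon gamma and axon regeneration. The libraries were chosen by their labels: 3 came from L4-L5 ganglia of wild-type mice collected 3 days after injury of the sciatic nerve, and 3 from L4-L5 ganglia of wild-type mice given sham surgery, whose titles call them intact. No drug, transgene or Cre is named for either group. The other 9 ganglion libraries, from Ptpn2 knockout mice with injury or sham surgery and from injured wild-type mice given the cGAS inhibitor RU521, entered the model to estimate the spread between replicates, so 15 ganglion libraries were fitted together. The labels do not say whether replicates are separate animals or pools, so the p-values measure the spread between these libraries, which may be technical.

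The dorsal root ganglion holds the cell bodies of the sensory neurons whose peripheral axons run in the sciatic nerve, each wrapped by satellite glia, together with Schwann cells around the axons, resident macrophages, vessels and connective tissue. After a cut or crush of the peripheral axon the neurons are known to switch on transcription factors such as Atf3, to make growth-associated proteins and peptides such as galanin and neuropeptide Y, and to lower many channels and transmitters of the intact state. Immune cells are known to gather in the ganglion after nerve injury.

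The 3 injured libraries held 15982674, 18418172 and 15450792 counts and the 3 sham libraries 22414750, 16427052 and 18110613. At these depths 3 counts, taken as the floor of detection, correspond to 0.131 to 0.193 CPM, the counts scaled to library size, a limit that covers counting error alone. Sham replicate 2 stood apart from sham replicates 1 and 3. Genes with at least 1 count numbered 33275 to 34340 in injured libraries, and 26235, 34115 and 26802 in sham replicates 1, 2 and 3. Mitochondrially encoded genes took 13.2% to 15.6% of counts in injured libraries, and 4.87%, 15.2% and 6.52% in the sham libraries in the same order. The knockout and RU521 ganglion libraries had 28803 to 32856 detected genes and a mitochondrial share of 7.83% to 18.6%. Sham replicates 1 and 3 were thus the lowest of the 15 ganglion libraries in both measures, and sham replicate 2 was not. Which sham libraries are typical was not tested. Across genes, the correlation of log2 levels was 0.969 to 0.976 between injured libraries and 0.975 between sham replicates 1 and 3, but 0.923 and 0.939 between sham replicate 2 and the other sham libraries. Results are therefore given with all 3 sham libraries, with sham replicate 2 left out, and with sham replicate 2 as the only sham library. In the last case the lone library is assumed to vary like the other groups, and the same 3 injured libraries serve all 3 comparisons.

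The labels were checked first against the 4 genes that mark an injured sensory neuron. Sprr1a, a small proline-rich protein known to promote axon outgrowth (chr3:92483952-92485895, minus strand, GRCm38), had 329, 719 and 638 CPM in injured ganglia, against 1.52, 2.61 and 1.66 CPM in sham ganglia. Atf3, the stress-induced transcription factor used as the standard sign of axon injury (chr1:191170296-191218039, minus strand), had 178, 377 and 321 CPM in injured ganglia, against 7.97, 9.34 and 6.36 CPM in sham ganglia. Both genes were far apart between the groups, with injured replicate 1 the lowest injured library for each. Gal, which encodes the neuropeptide galanin, had 263, 484 and 441 CPM after injury and 22.7, 14.3 and 18.2 CPM after sham surgery. Npy, which encodes neuropeptide Y, had 36.3, 103 and 78.8 CPM after injury and 1.48, 1.37 and 1.44 CPM after sham surgery. For these 4 genes sham replicate 2 lay with the other sham libraries, and injured replicate 1 was again the lowest of the injured ones. In edgeR's quasi-likelihood test with Benjamini-Hochberg adjustment over 18517 genes, the log2 fold changes of injured over sham were 8.20 ± 0.44 for Sprr1a (SE, adjusted p = 1.02e-07), 5.21 ± 0.41 for Atf3 (adjusted p = 6.23e-06), 4.42 ± 0.32 for Gal (adjusted p = 3.05e-06) and 5.66 ± 0.47 for Npy (adjusted p = 1.05e-05), and all 4 also passed without sham replicate 2, with it alone, and without any other library.

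Atf3 and the Jun proteins belong to the AP-1 family of transcription factors, which bind the motif TGANTCA, a motif that reads the same on both strands. The 250 bases before the start of each gene were searched for it in RefSeq's GRCm38.p6 promoters. It was found upstream of 843 of the 13310 tested genes with a promoter in that table (6.33%), of 109 of 1212 genes called higher after injury (8.99%), of 27 of 282 called higher with all 3 choices of sham libraries (9.57%), and of 59 of 1145 called lower (5.15%). The related motif TGACGTCA was found for 2.7% of tested genes, 2.39% of those called higher and 3.84% of those called lower. Among those called higher with all 3 choices of sham libraries it was found for 4 of 282 (1.42%). These are descriptions of letters in a window and not of binding. Among the 4 markers, the other genes of the strongest rise, Nts and Sox11, the first motif was found upstream of 4, Sprr1a, Lipn, Nts and Tmem88b. Gpr151 was not covered in this count. Of the 4 genes with the motif, 3, chosen as examples after the matches were seen, are shown. Each sequence runs 5′ to 3′ on the gene's own strand and ends at the base before the annotated start, with TGANTCA in capitals: Sprr1a (chr3:92485882-92486131, minus strand) holds it at positions -146 and -116 from the start, Lipn (chr19:34067108-34067357, plus strand) at -148, and Nts (chr10:102490419-102490668, minus strand) at -207.
Sprr1a: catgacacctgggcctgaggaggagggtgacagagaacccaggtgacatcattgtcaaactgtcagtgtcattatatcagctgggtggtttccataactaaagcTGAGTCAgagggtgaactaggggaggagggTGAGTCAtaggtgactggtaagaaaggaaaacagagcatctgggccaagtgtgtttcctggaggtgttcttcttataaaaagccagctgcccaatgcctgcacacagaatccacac
Lipn: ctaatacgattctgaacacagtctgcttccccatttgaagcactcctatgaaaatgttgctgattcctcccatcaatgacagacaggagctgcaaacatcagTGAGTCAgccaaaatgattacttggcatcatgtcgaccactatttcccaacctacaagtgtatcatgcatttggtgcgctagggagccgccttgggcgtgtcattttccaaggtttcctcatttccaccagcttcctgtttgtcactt
Nts: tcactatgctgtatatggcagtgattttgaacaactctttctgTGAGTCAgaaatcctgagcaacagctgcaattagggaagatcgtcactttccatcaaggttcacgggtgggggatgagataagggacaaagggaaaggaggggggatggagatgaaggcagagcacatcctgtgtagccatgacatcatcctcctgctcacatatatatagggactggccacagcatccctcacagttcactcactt

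Over all genes tested, 3070 of 18517 passed an adjusted p of 0.05 (16.6%), 1593 higher (8.6%) and 1477 lower (7.98%) after injury. The rises were the larger changes: the median log2 fold change was 1.40 among genes that rose and -0.90 among genes that fell. Of the genes that rose, 441 did so by more than 2 on the log2 scale and 145 by more than 3, against 39 and 4 genes that fell by as much. The median over all genes tested was 0.00038. Without sham replicate 2, 6492 genes passed (35.1%), 3405 higher (18.4%) and 3087 lower (16.7%). With sham replicate 2 as the only sham library 1739 passed (9.39%), 1027 higher (5.55%) and 712 lower (3.85%). Leaving out sham replicate 1 gave 1623 genes and sham replicate 3 gave 1303, while leaving out injured replicate 2 gave 1295 and injured replicate 3 gave 1438. A core of 583 genes passed in the same direction with all 3 choices, 367 higher and 216 lower. Calls that also passed in each of the 6 fits that left out 1 wild-type library numbered 615 higher (3.32%) and 395 lower (2.13%). Libraries of the groups did not overlap for 3242 genes that lay higher (17.5%) and 2927 that lay lower (15.8%) after injury. The shares in this paragraph are the background for all counts of list members below. A list count near its background is not read as a result about that list.

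**Figure D1:**
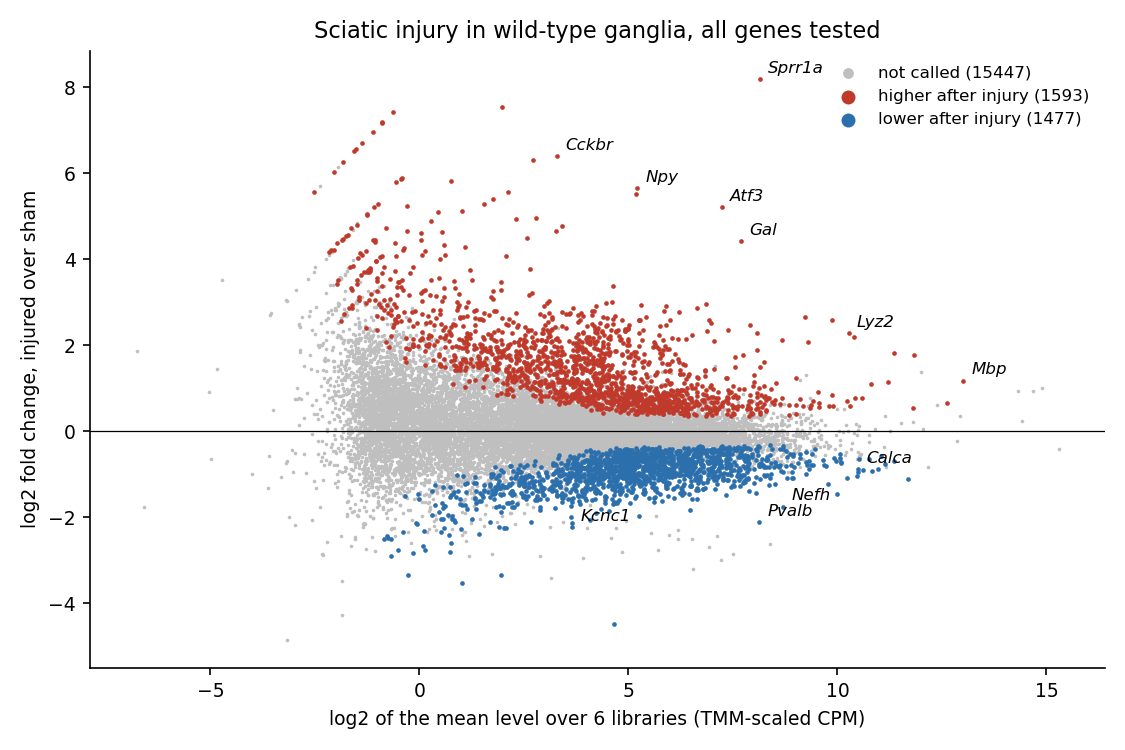
Log2 fold change of injured over sham (y axis) against the log2 mean level over the 6 libraries in TMM-scaled CPM (x axis), 1 point per gene tested, coloured by edgeR's call with all 3 sham libraries. The 1593 genes called higher reach larger changes than the 1477 called lower, with Sprr1a at 8.20 at the top.

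Among genes with a mean of at least 5 CPM, no overlap between the groups and a call also without sham replicate 2, the 12 highest by log2 fold change were Sprr1a, Cckbr, Lipn, Npy, Gpr151, Atf3, Slc6a4, Ecel1, Wfdc3, Fgf3, Gal and Tmem88b. Cckbr, the receptor of gastrin and cholecystokinin, had 13.7, 24.9 and 19.8 CPM in injured ganglia, against 0.305, 0.0623 and 0.267 CPM in sham ganglia (6.40 ± 0.60, SE). Gpr151, an orphan receptor of sensory and habenular neurons, had 47.7, 89.5 and 74.9 CPM after injury and 1.52, 0.809 and 2.19 CPM after sham surgery (5.53 ± 0.42). For both receptors the groups were far apart relative to the spread within each, and sham replicate 2 was the lowest library. For Cckbr the sham libraries held 13 counts in all, and sham replicate 2 lay under the floor of detection. The order of the sham libraries for Cckbr is therefore uncertain. Lipn, a lipase family member known from skin, had 7.94, 18.6 and 12.3 CPM after injury, against 0.131, 0.125 and 0.214 CPM after sham surgery (6.31 ± 0.62), so that its sham level lay at the floor of detection. Slc6a4, the serotonin transporter, had 8.55, 18.6 and 12.96 CPM after injury, against 0.261, 0.623 and 0.428 CPM (4.96 ± 0.80). Ecel1, an endopeptidase-like protein of damaged neurons, had 13.98, 26.6 and 21.3 CPM after injury, against 0.261, 1.87 and 0.267 CPM after sham surgery (4.77 ± 0.62). In Ecel1 sham replicate 2 lay above the other sham libraries but well below the injured ones. Fgf3, a fibroblast growth factor, changed by 4.49 ± 0.42 and Wfdc3, a protease-inhibitor family member, by 4.66 ± 0.59. Against sham replicate 2 alone the log2 fold changes of the 12 ran from 3.48 for Tmem88b to 8.15 for Cckbr. The 12 were chosen partly for no overlap with any sham library, so a rise against that library was fixed by the choice.

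**Figure D2:**
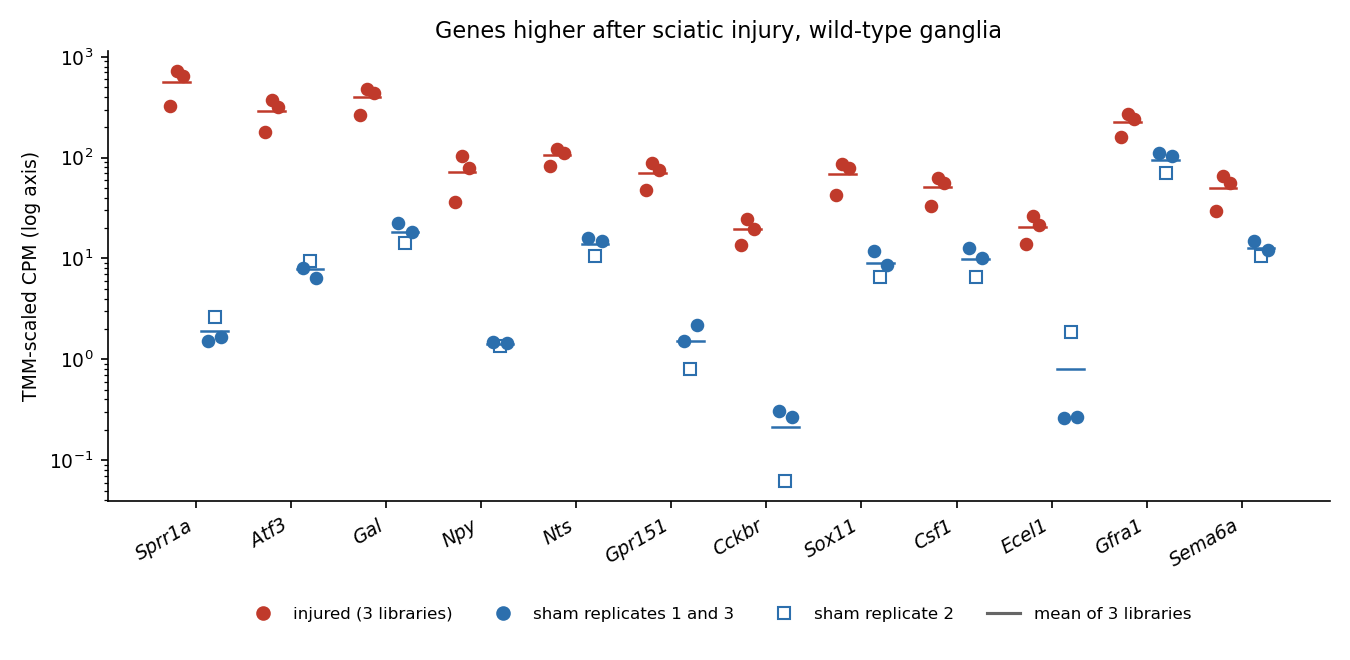
TMM-scaled CPM (log axis) of 12 genes that rose after injury, in each of the 3 injured libraries (left of each pair, red) and the 3 sham libraries (right, blue, with sham replicate 2 as an open square). Horizontal bars are means of 3 libraries. Sham replicate 2 lies with or near the other sham libraries, and injured replicate 1 is the lowest injured library for each gene shown.

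Of 21 tested transcription factors linked to axon injury, 8 rose and 0 fell (background 8.6% and 7.98%; median log2 fold change of the list 0.18). Without sham replicate 2 the counts were 10 and 2, and with it alone 8 and 2. Sox11, a factor needed for axon growth, had 42.2, 87.3 and 79.2 CPM in injured ganglia, against 11.9, 6.60 and 8.71 CPM in sham ganglia, a log2 fold change of 2.93 ± 0.29. Cebpd, a C/EBP family factor induced by cytokines, had 43.4, 40.3 and 36.8 CPM after injury and 1.92, 9.03 and 12.7 CPM after sham surgery (2.36 ± 0.59). Klf6, a zinc-finger factor known to favour axon growth, rose by less, at 0.77 ± 0.14, and Jun, the AP-1 partner, by 0.66 ± 0.19. Jun illustrates how close the groups can lie, with 76.4, 118 and 105 CPM after injury and 72.6, 45.0 and 72.3 CPM after sham surgery. Stat3, the effector of gp130 cytokines, at -0.20 and Smad1, the effector of BMP signals, at 0.02 were not called with all libraries. For Stat3 the call turned with the sham library used, since it was called lower without sham replicate 2 and higher against sham replicate 2 alone. Of 12 immediate early genes 6 rose, 0 fell and the median was 0.77, with 5 higher without sham replicate 2 and 2 with it alone. Among them Fos, which pairs with Jun, rose by 1.15 ± 0.27 and Btg2, a brake on cell division, by 1.60 ± 0.29. Fosb, another partner of Jun, had few counts, with 41 counts in all in injured libraries and 3 in sham libraries, a ratio of 15.8 (95% counting interval 5.03 to 79.6).

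Growth-associated effectors act at the cytoskeleton, membrane and surface of growing axons. Of 20 tested, 12 rose and 1 fell, with a median of 1.03, and the counts were 14 and 1 without sham replicate 2 and 12 and 0 with it alone. Gap43, the growth-cone protein that gives the class its name, had 293, 501 and 437 CPM in injured ganglia and 215, 173 and 203 CPM in sham ganglia (1.06 ± 0.18). Flrt3, a leucine-rich adhesion protein, had 104, 184 and 167 CPM after injury and 42.3, 20.5 and 33.5 CPM after sham surgery (2.23 ± 0.31). Both genes were high in every injured library relative to every sham library, and both were lowest in sham replicate 2. Plaur, the urokinase receptor, had 39.1, 45.0 and 50.2 CPM in injured ganglia and 9.71, 9.21 and 10.2 CPM in sham ganglia (2.21 ± 0.24). Stmn4, a tubulin-binding stathmin, rose by 1.99 ± 0.25, the tubulin Tubb6 by 2.14 ± 0.25 and the DNA-damage-inducible Gadd45a by 2.40 ± 0.31. Nrn1, which encodes the neurite-promoting protein neuritin, was the member that fell, at -1.02 ± 0.20, with 164, 114 and 116 CPM after injury and 308, 212 and 283 CPM after sham surgery. Arg1, an arginase often listed as a regeneration gene, was not called, with 1.77, 3.03 and 2.06 CPM in injured ganglia and 0.392, 1.74 and 1.39 CPM in sham ganglia.

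Of 17 neuropeptide genes tested 6 rose and 6 fell, with a median of 0.13. Beside Gal and Npy, the genes that rose were Nts (neurotensin), Crh (corticotropin-releasing hormone), Adcyap1 (PACAP) and Grp (gastrin-releasing peptide). Nts had 82.2, 123 and 111 CPM in injured ganglia and 16.0, 10.7 and 14.9 CPM in sham ganglia, a log2 fold change of 2.92 ± 0.26. Crh had 4.82, 8.10 and 7.03 CPM after injury and was at 0.392 CPM in sham replicate 1 and at 0 counts in sham replicates 2 and 3, so its fitted value of 5.40 depends on how a 0 is treated. Adcyap1 had 99.4, 157 and 134 CPM after injury and 84.8, 34.6 and 73.8 CPM after sham surgery (1.01 ± 0.24). The peptides that fell included Calca and Tac1. Calca, which encodes CGRP, had 1258, 851 and 951 CPM in injured ganglia and 2061, 1655 and 1930 CPM in sham ganglia (-0.88 ± 0.15). Tac1, the precursor of substance P, had 114, 65.7 and 75.1 CPM after injury and 276, 167 and 265 CPM after sham surgery (-1.48 ± 0.26). Calcb, Nmb, Sst and Cartpt fell by 0.82 to 1.35 on the log2 scale. With sham replicate 2 as the only sham library, 5 peptides were higher and 1, Calca, was lower, and without that library 7 were higher and 6 lower. Vip, a peptide known to rise after axotomy, stayed under 1 CPM in all 6 libraries and was not tested.

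Among 24 peptide receptors 2 rose, Cckbr and Gpr151, and 4 fell (background 8.6% and 7.98%), with a median of -0.66. When sham replicate 2 was left out the background was 18.4% higher and 16.7% lower. Without sham replicate 2, 4 were higher and 7 lower, and with it alone 3 were higher and 0 lower, with a median of 0.12. Sstr2, a somatostatin receptor, had 1.28, 1.16 and 1.22 CPM in injured ganglia and 4.97, 3.61 and 7.27 CPM in sham ganglia (-2.11 ± 0.38). Mrgprd, the receptor that marks non-peptidergic nociceptors, had 112, 49.8 and 67.9 CPM after injury and 276, 88.5 and 215 CPM after sham surgery (-1.33 ± 0.37). For Mrgprd the groups overlapped, because injured replicate 1 lay above sham replicate 2. Of 12 genes of neurotrophin and GDNF signalling 1 rose and 3 fell, with a median of -0.23. Without sham replicate 2, 1 was higher and 4 were lower, with it alone 2 were higher and 0 lower with a median of 0.47, and leaving out each library in turn left 0 to 4 lower. Gfra1, the GDNF co-receptor, had 160, 274 and 242 CPM in injured ganglia and 112, 70.7 and 104 CPM in sham ganglia (1.24 ± 0.20), while Gfra2, the neurturin co-receptor, had 57.3, 36.6 and 41.4 CPM after injury and 117, 52.7 and 103 CPM after sham surgery (-1.01 ± 0.29). Ntrk3, the receptor of neurotrophin 3, fell by 1.14 ± 0.28. Of 14 genes of gp130 cytokine signalling 3 rose and 0 fell: Osm (oncostatin M) at 4.65 ± 0.74, Il6 at 2.16 ± 0.44 and Socs3, the feedback inhibitor, at 1.12 ± 0.28. Without sham replicate 2, 5 of these genes were higher and 3 lower, and with it alone 4 were higher and 0 lower. Osm had 2.44, 3.14 and 2.84 CPM in injured ganglia and 0.0436, 0.0623 and 0.214 CPM in sham ganglia, values that lie under the floor in sham replicates 1 and 2.

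Channel genes were counted by family. Of 33 potassium and HCN channel genes 18 fell and 0 rose (median -0.92), of 13 sodium channel genes 8 fell and 0 rose (median -0.98), of 14 sensory transduction channels 5 fell and 0 rose (median -0.83), of 16 glutamate and GABA receptor genes 8 fell and 0 rose (median -0.87), and of 15 calcium channel genes 3 fell and 1 rose (median -0.62). Kcnc1, a Kv3 channel of fast-firing neurons, had 3.42, 5.02 and 4.83 CPM in injured ganglia and 22.7, 17.2 and 22.2 CPM in sham ganglia (-2.23 ± 0.33, adjusted p = 0.0011). It lay lower in each injured library than in any sham library, and sham replicate 2 was close to the other sham libraries. Scn10a, the Nav1.8 channel of nociceptors, had 140, 83.2 and 96.2 CPM in injured ganglia and 328, 156 and 281 CPM in sham ganglia (-1.26 ± 0.32). Trpv1, the heat and capsaicin receptor, had 43.0, 37.1 and 33.3 CPM after injury and 107, 39.7 and 93.6 CPM after sham surgery (-1.08 ± 0.28). In Trpv1 sham replicate 2 lay inside the range of the injured libraries, and its log2 fold change against that library alone was -0.03. Cacna2d1, the calcium channel subunit bound by gabapentin and known to rise after nerve injury, was the channel gene that rose, with 115, 160 and 138 CPM in injured ganglia and 94.7, 65.6 and 98.2 CPM in sham ganglia (0.68 ± 0.18). The channel counts without sham replicate 2 were 24 lower for potassium and HCN, 10 for sodium, 11 for transduction and 11 for glutamate and GABA. With sham replicate 2 as the only sham library they were 2, 1, 0 and 1, against 3.85% of all genes tested that were lower in that comparison. Of the calcium channel genes 4 were lower and 1 higher without sham replicate 2, and 1 was lower and 1 higher with it alone.

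Of 17 genes of transmitter release 11 fell and 0 rose (median -1.02). In the fit without sham replicate 2, 15 were lower, and with it alone 3 were lower and 2 higher, with a median of -0.18. Syt7, a calcium sensor of asynchronous release, had 14.2, 7.66 and 8.51 CPM in injured ganglia and 37.2, 36.9 and 35.9 CPM in sham ganglia (-1.86 ± 0.34). Slc17a7, the vesicular glutamate transporter of large sensory neurons, had 5.98, 5.84 and 6.51 CPM after injury and 18.5, 16.9 and 21.97 CPM after sham surgery (-1.65 ± 0.29). Snap25, a core protein of vesicle fusion, had 1006, 880 and 932 CPM in injured ganglia and 2595, 896 and 2264 CPM in sham ganglia. Its log2 fold change was -1.03 ± 0.26 with all libraries and -1.38 without sham replicate 2, but 0.10 with sham replicate 2 as the only sham library. Of 17 identity factors 10 fell and 0 rose (median -1.02), among them Isl1, with 71.8, 61.8 and 64.2 CPM after injury and 151, 81.7 and 134 CPM after sham surgery (-0.89 ± 0.18), and Pou4f1, which encodes Brn3a, at -1.02 ± 0.24. When sham replicate 2 was left out, 12 identity factors were lower and 1 was higher, and with it alone 2 were lower.

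**Figure D3:**
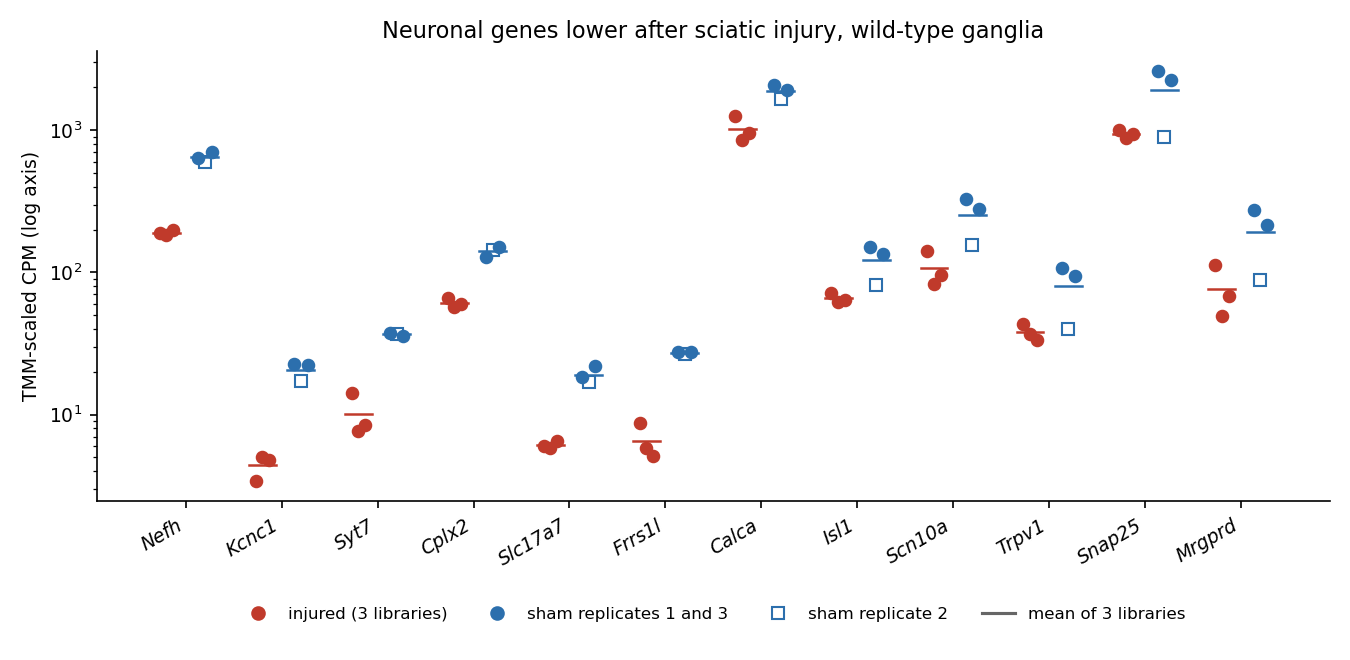
TMM-scaled CPM (log axis) of 12 neuronal genes that fell after injury, in the 3 injured libraries (left of each pair, red) and the 3 sham libraries (right, blue, with sham replicate 2 as an open square). Horizontal bars are means of 3 libraries. From Nefh to Calca each sham library lies above each injured library, while in Trpv1, Snap25 and Mrgprd sham replicate 2 lies within the injured range.

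Structural proteins of the axon were divided. Nefh, the heavy neurofilament, had 190, 184 and 198 CPM in injured ganglia and 632, 600 and 698 CPM in sham ganglia (-1.76 ± 0.29, adjusted p = 0.0021), with all 3 sham libraries alike. Nefl, the light neurofilament, had 2105, 2052 and 2065 CPM after injury and 5727, 2680 and 5065 CPM after sham surgery (-1.11 ± 0.24). Of 24 genes for neurofilaments and microtubules 8 fell and 3 rose, the risers being Tubb6, Tuba1c and Stmn4. If sham replicate 2 was left out, 13 were lower and 3 higher, and with it alone 2 were lower and 3 higher. Of 15 motor genes of axonal transport 4 fell and 0 rose, without sham replicate 2 9 were lower and 1 higher, and with it alone 0 were lower and 1 was higher. Pvalb, the calcium buffer of proprioceptors and also of fast muscle fibres, was among the 12 strongest falls, with 134, 82.1 and 98.2 CPM in injured ganglia and 172, 963 and 225 CPM in sham ganglia. Its log2 fold change was -2.11 ± 0.47 with all libraries and -0.93 without sham replicate 2. Summed levels of 6 skeletal muscle genes were also highest in sham replicate 2: 459, 44.4 and 164 CPM in injured libraries and 15.1, 3955 and 410 CPM in sham libraries. The order was not shared throughout, since sham replicate 1 had the lowest muscle sum but more Pvalb than each injured library. The part of muscle genes in the Pvalb value was not tested.

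The other strong falls included Tpbgl, a leucine-rich membrane protein, Frrs1l, an AMPA receptor assembly factor, Htr3b, a serotonin-gated channel subunit, and Lgi3, a secreted synaptic protein. Frrs1l had 8.73, 5.84 and 5.09 CPM in injured ganglia and 27.4, 26.8 and 27.6 CPM in sham ganglia (-2.06 ± 0.32). Against sham replicate 2 alone the log2 fold change was -1.99 for Frrs1l and -0.89 for Htr3b, and neither Htr3b nor Lgi3 was called there. The 12 strongest falls were chosen partly for no overlap with any sham library, so a fall against that library was fixed by the choice.

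Markers of the sensory neurons as a whole moved with these falls. Of 11 pan-neuronal markers 8 fell, and their summed level was 4797, 4542 and 4556 CPM in injured ganglia and 9228, 5303 and 9332 CPM in sham ganglia. In whole ganglia, fewer cells of a type and less RNA per cell cannot be told apart. The part of this lower neuronal share in the falls of single channels, peptides and release genes was not tested. Against sham replicate 2, whose neuronal sum lay nearest to the injured ones, 0 of the 11 markers passed in edgeR's test and 1 had an unadjusted p under 0.05.

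All 10 tested red cell and erythroblast genes rose (median 2.24), as did 8 of 8 neutrophil genes (median 2.46), 8 of 8 granule genes of neutrophil precursors (median 2.22) and 15 of 19 macrophage genes (median 1.68). In the fit without sham replicate 2, the counts were 10, 8, 8 and 17, with 1 macrophage gene lower. With sham replicate 2 as the only sham library they were 3, 5, 2 and 4, against 5.55% of all genes tested that were higher in that comparison. Leaving out each library in turn left at least 5, 8, 6 and 9. Ngp, a granule protein of immature neutrophils, had 1801, 1480 and 1573 CPM in injured ganglia and 178, 421 and 213 CPM in sham ganglia (2.58 ± 0.37). Alas2, the first enzyme of haem synthesis in red cell precursors, had 251, 307 and 279 CPM after injury and 28.1, 99.3 and 35.4 CPM after sham surgery (2.37 ± 0.41). In both genes sham replicate 2 lay between the injured libraries and the other sham libraries. Summed over the red cell list, levels were 11050, 11250 and 11120 CPM in injured ganglia and 1223, 6621 and 1569 CPM in sham ganglia. Summed over the precursor list they were 4043, 3412 and 3619 CPM after injury and 416, 1086 and 485 CPM after sham surgery. Counts of globin genes are uncertain because near-identical copies share reads.

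Lyz2, the lysozyme of myeloid cells, had 2240, 1903 and 2003 CPM in injured ganglia and 241, 734 and 289 CPM in sham ganglia (2.28 ± 0.40). Mrc1, a receptor of resident macrophages, had 57.0, 104 and 79.0 CPM after injury and 15.6, 27.7 and 15.6 CPM after sham surgery (2.03 ± 0.33). Csf1, the macrophage growth factor that injured sensory neurons are known to make, had 33.2, 63.5 and 55.4 CPM in injured ganglia and 12.6, 6.54 and 10.2 CPM in sham ganglia (2.37 ± 0.32). Csf1 differs in its pattern over libraries: sham replicate 2 was the lowest for Csf1 and the highest sham library for Lyz2 and Mrc1. Of 15 complement genes 10 rose, with C5ar1, a complement receptor of myeloid cells, at 2.67 ± 0.35, and of 17 cytokine and chemokine genes 6 rose. When sham replicate 2 was left out, 13 complement genes were higher and 1 lower and 10 cytokine genes were higher, and with it alone 3 complement genes and 1 cytokine gene were higher. Of 11 T and NK cell genes 1 rose, and of 11 B lineage genes 1, Ebf1, fell, near the 8.6% and 7.98% over all genes tested. There were 8 B lineage genes higher and 1 lower, and 2 T and NK cell genes higher, without sham replicate 2. Over all genes tested 18.4% were higher and 16.7% lower in that fit. The B lineage median was 0.58 with all libraries, 1.89 without sham replicate 2 and -0.22 with it alone. For T and NK cell genes the medians were 0.68, 1.82 and -0.32 in the same order. Of 28 interferon-stimulated genes 4 rose, Rsad2, Oas3, Irf9 and Igtp, and 0 fell (background 8.6% and 7.98%), with a median of 0.39. In the fit without sham replicate 2, 12 were higher, and with it alone 0 passed in edgeR's test and 2 had an unadjusted p under 0.05. Leaving out each library in turn left 0 to 12 called, and Igtp was called in 1 of those 6 fits.

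All 18 cell cycle genes rose, with a median of 1.77. Mcm2, a subunit of the replication helicase, had 32.6, 37.0 and 40.7 CPM in injured ganglia and 10.5, 10.3 and 10.1 CPM in sham ganglia (1.83 ± 0.26). Ccnb1, the mitotic cyclin, had 28.0, 30.5 and 33.8 CPM after injury and 2.13, 7.66 and 3.63 CPM after sham surgery (2.80 ± 0.51). Summed over the list, levels were 598, 675 and 656 CPM in injured ganglia and 143, 315 and 162 CPM in sham ganglia. With sham replicate 2 as the only sham library, 2 of the 18 passed, Mcm2 and Mcm6. Red cell and neutrophil precursors divide. The sums of their lists, given above, were also higher in each injured library than in each sham library, with sham replicate 2 the highest sham library. Among the injured libraries the precursor sums ran in the opposite order to the cell cycle sums. The part of red cell and neutrophil precursors in the cell cycle result was not tested.

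**Figure D4:**
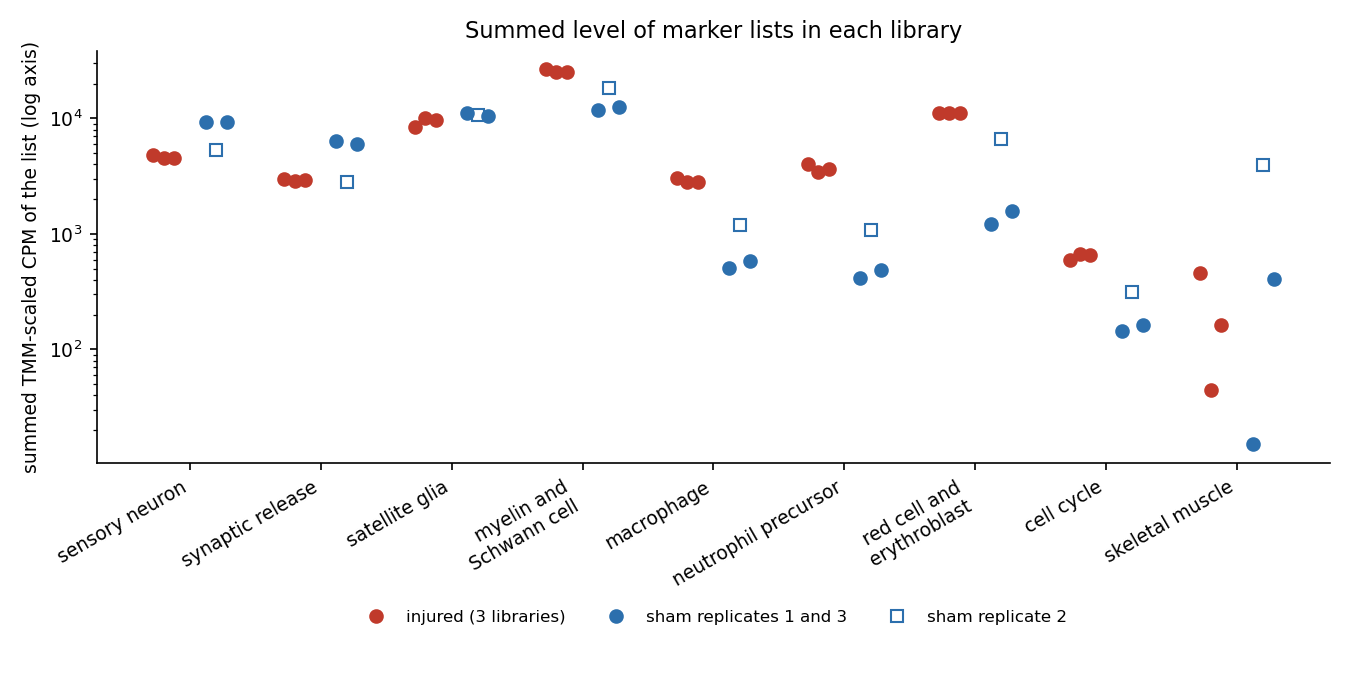
Summed TMM-scaled CPM (log axis) of 9 marker lists in the 3 injured libraries (left of each pair, red) and the 3 sham libraries (right, blue, with sham replicate 2 as an open square). Sham replicate 2 lies nearer to the injured libraries than the other sham libraries do for neuronal, myelin, macrophage, marrow and cell cycle lists, and it holds the highest muscle sum, 3955 CPM.

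Of 17 myelin and Schwann cell genes 9 rose and 0 fell (median 0.68), 15 without sham replicate 2 and 3 with it alone. Pmp22, a myelin membrane protein, had 8901, 6916 and 7282 CPM in injured ganglia and 5144, 4560.5 and 4838 CPM in sham ganglia (0.67 ± 0.15). Mbp, myelin basic protein, had 11376, 11563 and 11444 CPM after injury and 3261, 8066 and 3881 CPM after sham surgery (1.18 ± 0.27). Of 13 satellite glia genes 3 rose and 2 fell with a median of -0.04, the counts were also 3 and 2 without sham replicate 2, and with it alone 3 were higher and 3 lower. Gfap, the filament protein known to appear in satellite glia around injured neurons, had 11.8, 40.6 and 25.5 CPM in injured ganglia and 5.53, 2.61 and 3.90 CPM in sham ganglia (2.68 ± 0.51). Injured replicate 1 was the lowest injured library for Gfap, as it was for Atf3, Sprr1a, Gal and Npy. Of 6 genes of repair Schwann cells 1, Runx2, rose and 1, Nrg1, fell, and Runx2 was not called with sham replicate 2 alone. Mobp, an oligodendrocyte myelin gene, had 23.7, 61.8 and 49.3 CPM after injury and 2.88, 7.10 and 2.99 CPM after sham surgery (3.39 ± 0.67). Mobp was also called without sham replicate 2 but not with that library alone. Of the other 4 genes on the spinal cord and oligodendrocyte list, Mog, Olig2 and Slc6a5 were each under 1 CPM in all 6 libraries. The fourth, Aqp4, a water channel of astrocytes, had 7.94, 5.51 and 6.12 CPM after injury and 7.67, 5.85 and 10.8 CPM after sham surgery and was not called (-0.32). A part of spinal cord tissue in the Mobp value was not tested.

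Smaller groups were as follows. Over all genes tested 8.6% were higher and 7.98% lower, or 18.4% and 16.7% when sham replicate 2 was left out. Of 17 integrin and laminin genes 5 rose and 0 fell, 9 were higher and 1 lower without sham replicate 2, and 2 were higher with it alone. Among them was Itgb1, the shared beta subunit of laminin and fibronectin receptors, at 392, 436 and 400 CPM in injured ganglia and 227, 206 and 287 CPM in sham ganglia (0.77 ± 0.16). Of 21 axon guidance genes 2 rose and 1 fell, close to the 8.6% and 7.98% over all genes tested. When sham replicate 2 was left out, 2 were higher and 3 lower, and with it alone 1 was higher and 1 lower. Sema6a, a transmembrane semaphorin, had 29.7, 65.7 and 55.6 CPM after injury and 14.9, 10.7 and 12.2 CPM after sham surgery (2.00 ± 0.28). Of 19 genes of axon degeneration and neuronal death 3 rose and 3 fell, 4 were higher and 5 lower without sham replicate 2, and 3 were higher and 2 lower with it alone. The survival gene Bcl2l1 rose by 0.77 ± 0.14, while Nmnat2, which keeps axons alive, fell by 0.82 ± 0.20. Of 15 genes of the integrated stress response 2 rose, Ppp1r15a and Chac1, with 4 higher and 1 lower without sham replicate 2 and 3 higher and 1 lower with it alone. The central factors Atf4, at -0.03, and Ddit3, at -0.05, were not called. Of 14 endoplasmic reticulum chaperones 0 passed in edgeR's test with all libraries, 1 at an unadjusted p under 0.05, with 0 calls by DESeq2 and 4 by limma-voom. There was 1 chaperone higher and there were 2 lower without sham replicate 2, and with it alone 2 were higher. Of 10 fibroblast and collagen genes 3 rose, among them Lum, a collagen-binding proteoglycan, at 1.05 ± 0.17. In the fit without sham replicate 2, 8 were higher (median 0.76), and with it alone 1 was higher and 2 were lower (median -0.47). Their summed level was 3415, 3438 and 3406 CPM in injured libraries and 1668, 3946 and 1865 CPM in sham libraries, so that sham replicate 2 was the highest of the 6.

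Of 81 nuclear genes of the respiratory chain tested, 35 fell and 0 rose with all libraries, with a median of -0.40. Over all genes tested 7.98% were lower and 8.6% higher, or 16.7% and 18.4% when sham replicate 2 was left out. When sham replicate 2 was left out, 47 fell and 1 rose, with a median of -0.32, and against sham replicate 2 alone 45 fell and 0 rose, with a median of -0.49. Of the 81, 22 were lower with all 3 choices. Ndufb3, a subunit of complex I, had 78.1, 64.1 and 68.8 CPM in injured ganglia and 109, 119 and 107 CPM in sham ganglia (-0.67 ± 0.12), and Ndufv1, another, had 192, 178 and 183 CPM after injury and 283, 254 and 291 CPM after sham surgery (-0.58 ± 0.11). Other members turned with the sham library used. Ndufs1, also of complex I, was at -0.71 without sham replicate 2 and at 0.10 with it alone, while Atp5e, a subunit of ATP synthase, was at 0.15 and -0.92. The 12 mitochondrially encoded genes tested had a median of 0.57. In edgeR's test with all libraries 0 passed, 3 at an unadjusted p under 0.05, with 3 calls by DESeq2 and 11 by limma-voom. Of the 12, 11 were higher without sham replicate 2, and 2 were lower against sham replicate 2 alone. Cytosolic ribosomal protein genes depended on the sham library too. Of 80, 0 passed in edgeR's test with all libraries, 1 at an unadjusted p under 0.05, with 1 call by DESeq2 and 47 by limma-voom. Of the 80, 45 were higher without sham replicate 2 and 39 were lower with it alone. Many of these genes have processed copies, so their counts are uncertain.

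**Figure D5:**
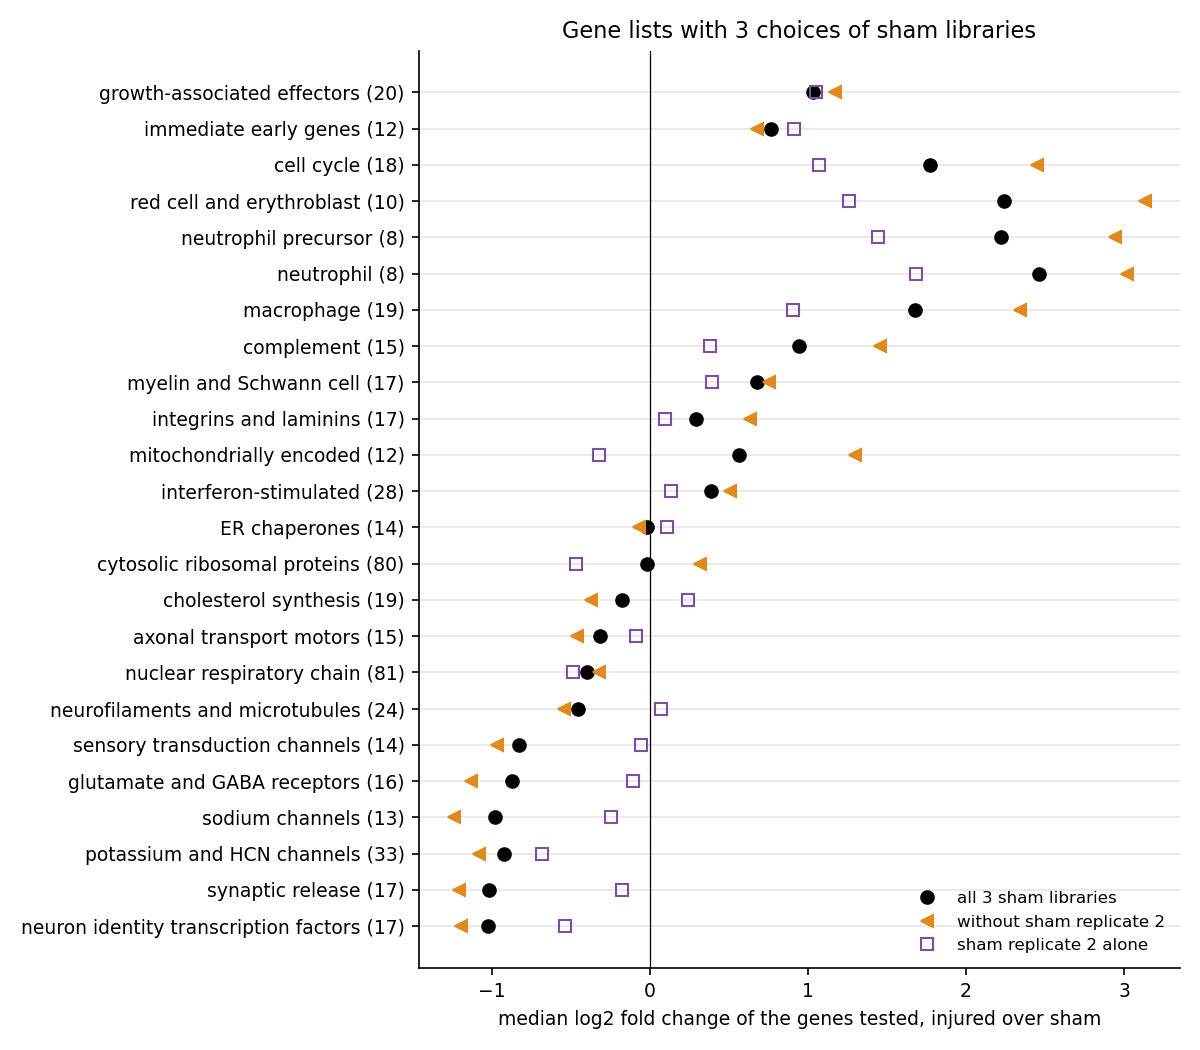
Median log2 fold change of injured over sham for 24 gene lists (number of genes tested in parentheses), with all 3 sham libraries (circles), without sham replicate 2 (triangles) and with sham replicate 2 alone (open squares). The 3 choices share the injured libraries. Growth-associated effectors stay near 1 and the nuclear respiratory chain near -0.4, while channel, release, marrow and cell cycle lists lie nearer to 0 against sham replicate 2 alone.

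The same injury contrast was available in Ptpn2 knockout ganglia, 3 injured and 3 sham libraries that share no library with the wild-type ones. The injury effect differed between wild type and knockout for 83 of 18517 genes (0.448%), with 26 more positive (0.14%) and 57 more negative (0.308%) in wild type, and 1811 genes had an unadjusted p under 0.05. Atf3, Sprr1a, Gal and Npy were not among the 83, and 25 of the 83 were also called in the wild-type injury contrast. For Atf3 the knockout libraries had 433, 454 and 399 CPM after injury and 22.3, 29.3 and 29.1 CPM after sham surgery, and the difference of the 2 effects was 1.22 ± 0.49 (wild type minus knockout, adjusted p = 0.42 in edgeR's quasi-likelihood test).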

How the data were processed

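RNA from L4-L5 ganglia was amplified as full-length cDNA and sequenced as paired ends, per the labels' protocols. Trim Galore and STAR with GRCm38 (mm10) are named in the submitters' processing notes, without versions. The authors deposited raw read counts per gene symbol with gene lengths in bp, made with featureCounts 2.0.1 on Ensembl release 101, per the file headers: paired primary alignments with mapping quality of at least 10, summed over exons without regard to strand. Counts of overlapping and antisense genes are therefore uncertain. Of 20 alignments listed in the counting command, 15 are columns of the table.

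Genes were kept by edgeR's filterByExpr (minimum count 10, minimum total 15), scaled by TMM and tested with edgeR 4.0.16 (R 4.3.3) by the quasi-likelihood test, 1 mean per group over 15 ganglion libraries and no covariates, with Benjamini-Hochberg adjustment over 18517 genes and a threshold of 0.05. CPM values are TMM-scaled. SE is the log2 fold change divided by the root of F. The pipeline was run on simulated counts with planted changes and no outlying library, so that run does not cover the case of sham replicate 2. DESeq2 1.42.0 and limma 3.58.1 served as alternatives. Named genes were the 4 markers, the 12 largest rises and 12 largest falls (called with all libraries and without sham replicate 2, mean of at least 5 CPM, no overlap, no predicted genes), up to 5 called genes per list by p, and 2 abundant members of lists with 0 calls. Other genes in the text were added after their values were seen. Members and lists were chosen with earlier results of these data known. Some genes are not reported here. No 2 libraries held identical counts.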

Additional observations from a re-analysis of the deposited data

Results flagged for a closer look

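Igtp, an interferon-induced GTPase gene, responded differently to injury in wild-type and Ptpn2 knockout ganglia by a direct test of the difference. It had 43.3, 49.9 and 40.7 CPM in injured and 33.4, 32.4 and 29.3 CPM in sham wild-type ganglia, and 465, 446 and 360 CPM in injured and 40.4, 49.96 and 44.3 CPM in sham knockout ganglia. The difference of the injury effects (wild type minus knockout) was -2.75 ± 0.20 on the log2 scale (SE, adjusted p = 9.79e-06, edgeR's quasi-likelihood test), and it passed in 20 of 20 alternatives, between -2.84 and -2.65.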

How the results depend on the processing

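The number of genes called in the injury contrast changed with the libraries, the tool and a covariate. Against 3070 genes called (1593 higher, 1477 lower), limma-voom with sample quality weights called 9264 (4889 higher, 4375 lower), the 6 wild-type libraries alone 1652 (895, 757), detected genes as a covariate 849 (535, 314) and sham replicate 2 as the only sham library 1739 (1027, 712). Leaving out 1 library at a time gave 1295 to 6492 genes, 733 to 3405 higher and 513 to 3087 lower: 1623 without sham replicate 1, 6492 without sham replicate 2, 1303 without sham replicate 3, and 1295 and 1438 without injured replicates 2 and 3. DESeq2's size factors, DESeq2, no low-count filter and leaving out mitochondrial genes before scaling gave 3093 to 4110. Same-numbered replicates did not deviate together (correlations -0.085, -0.10 and -0.003). These deviations are from means of 3 libraries, among them the outlying sham replicate 2, so they cannot settle whether the numbers pair the samples. A fit with the replicate block called 3525 genes (1817 higher, 1708 lower). For the difference of the injury effects (83 genes, 26 higher, 57 lower), no filter gave 423 (214, 209), DESeq2 295 (149, 146), limma-voom 2008 (1229, 779), the replicate block 130 (70 higher), the covariate 375 (104, 271) and sham replicate 2 as the only sham library 1155 (567, 588). Leaving out 1 library gave 36 to 666, 4 to 413 higher and 31 to 253 lower. Of all settings, sham replicate 2 as the only sham library cost the most named genes their call. Of the 181 named genes, 83 lost their call with the covariate and 44 with the 6 wild-type libraries alone. Calls were lost by 43, 1 and 53 genes without sham replicates 1, 2 and 3, and by 21, 56 and 47 without injured replicates 1, 2 and 3. Signs turned for Dync1i1 (0.063), Canx (0.48), Pdia3 (0.24), Snap25 (0.10), Rplp0 (-0.12) and Rpl4 (-0.11) with sham replicate 2 alone, for Canx (0.32), Pdia3 (0.094), Rplp0 (-0.038) and Rpl4 (-0.026) with the covariate, and for Canx without sham replicates 1 (0.12) and 3 (0.0023), against -0.24 without sham replicate 2. The causes were not tested. At 15450792 to 22414750 counts a library, 3 counts correspond to 0.131 to 0.193 CPM.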

Other observations

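Sham replicate 2 was nearer to the mean of the injured libraries than to the other sham libraries for 4221 of the 6492 genes called without it (65.0%, on log2 of CPM plus 1). The same injured and sham libraries both chose these genes and set the distances. No such share was computed for another library or over all genes, so the 65.0% has no value to be compared with. For 251 genes the call turned with the choice of sham libraries: 80 were higher without sham replicate 2 and lower with it alone, and 171 were lower without it and higher with it alone. In the fit of all libraries 0 of these 251 passed edgeR's test, and 20 of them encode ribosomal proteins. Of the 3070 genes called with all libraries, 77 had the opposite sign with sham replicate 2 as the only sham library.

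Skeletal muscle genes set sham replicate 2 apart in a manner that red cell and marrow genes did not. Acta1, skeletal muscle actin, had 198, 16.5 and 67.9 CPM in injured ganglia and 5.49, 1541 and 192 CPM in sham ganglia. Of the 6 muscle genes 0 passed in edgeR's test with all libraries, 1 at an unadjusted p under 0.05, with 0 calls by DESeq2 and 0 by limma-voom. A further list in which that library was the highest was fat, with sums of 56.2, 31.6 and 45.9 CPM in injured ganglia and 23.0, 97.0 and 27.6 CPM in sham ganglia.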
